A study of Mus musculus with 21 samples.

Results

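MicroRNAs (miRNAs) of the superior olivary complex (SOC) were compared between postnatal day 16 (P16), after hearing onset, and embryonic day 16 (E16). The SOC is the group of auditory brainstem nuclei in which signals from both ears first converge. The comparison used 7 of the 21 small RNA libraries of the study, which were chosen by their tissue and age labels: 4 from the SOC at E16 and 3 from the SOC at P16. Both groups were wild-type mice without treatment, each sample was pooled from several animals, and all SOC libraries were made with the same isolation and library kits. The dissection differed with age. By the paper, E16 heads were frozen whole, whereas at P16 the brain was taken out of the skull before freezing. The SOC region was then cut out on a cryostat. Of 1647 mature miRNAs in the count table, 675 exceeded 1 CPM (reads of a miRNA scaled to the depth of its library) in at least 2 replicates of either age and were tested. The other 972 did not pass this filter.

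A miRNA is cut from one arm of a hairpin precursor (5p or 3p) and binds target mRNAs mainly through its seed, bases 2 to 8 of the mature strand, so miRNAs with one seed form a family with overlapping targets. Many hairpins lie close together in the genome and are cut from one primary transcript, so that the members of such a genomic cluster can be made together. In developing brain, miRNA clusters of dividing progenitors, miRNAs of neurons and miRNAs of myelinating glia are used at different stages, and the auditory brainstem passes through circuit assembly, hearing onset and myelination between the ages compared here.

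The following mature sequences are those on which the results turn. They were taken from RefSeq (GRCm38.p6, written 5′ to 3′ with the seed in capitals), in which 594 of the 675 tested miRNAs had an entry. The first set is the cluster of miR-183, miR-96 and miR-182, of which miR-182-5p and miR-183-5p were among the most abundant miRNAs that fell. The sequences of this set lie at chr6:30165962-30165986, chr6:30169506-30169528 and chr6:30169711-30169732, all on the minus strand.
miR-182-5p: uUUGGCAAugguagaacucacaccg
miR-96-5p: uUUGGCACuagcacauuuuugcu
miR-183-5p: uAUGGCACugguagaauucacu
The second set holds pairs that share a seed but changed in opposite directions. In each pair the first rose and the second fell, at chr4:150068473-150068494 (plus strand), chr13:113037549-113037570 (plus), chr11:70234730-70234751 (plus) and chrX:53054306-53054327 (minus).
miR-34a-5p: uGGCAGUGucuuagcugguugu
miR-449a-5p: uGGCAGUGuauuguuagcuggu
miR-497a-5p: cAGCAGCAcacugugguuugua
miR-322-5p: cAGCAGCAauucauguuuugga
The next set lists miRNAs that rose, with the shared seed of miR-132 and miR-212 and of the let-7 family visible in the capitals. They lie at chr11:75173723-75173744, chr11:75173443-75173464 and chr15:85707325-85707346 on the plus strand, and at chr11:120014816-120014837, chr11:120014781-120014802 and chr13:48536078-48536099 on the minus strand.
miR-132-3p: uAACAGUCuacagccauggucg
miR-212-3p: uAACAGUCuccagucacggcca
let-7b-5p: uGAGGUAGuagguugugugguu
miR-338-5p: aACAAUAUccuggugcugagug
miR-338-3p: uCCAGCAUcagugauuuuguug
let-7d-5p: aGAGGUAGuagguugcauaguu
The last pair shares the seed of the miR-17 family, of which the first member fell and the second did not pass the test, at chr14:115044183-115044205 (plus) and chr5:138165574-138165596 (minus).
miR-20a-5p: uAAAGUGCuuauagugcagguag
miR-93-5p: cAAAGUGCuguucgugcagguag

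The libraries held 8309669 to 18053698 counts each, and a single count corresponded to 0.0601 to 0.107 CPM after normalization. Levels are CPM scaled by TMM factors of 0.83 to 1.13, so they need not sum to the same total in every library. The libraries of one age were not alike in composition. In P16 replicates 2 and 3, miR-191-5p took 0.322% and 0.277% of the counts against 6.51% in P16 replicate 1 and 4.30% to 6.86% at E16. At E16, miR-99b-5p took 17.4% and 18.4% in replicates 2 and 3 against 2.60% and 3.63% in replicates 1 and 4. P16 replicate 1 therefore had no second library of its kind at P16, and each main value is given below in every library, in the order of replicates 1 to 4 at E16 and 1 to 3 at P16. The 18 tested neuronal marker miRNAs summed to 45736 to 115857 CPM at E16 and to 46925 to 57985 CPM at P16. At E16 most of this sum was miR-9-5p. No other tissue was compared, so the sum does not test the tissue label.

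Across the 675 miRNAs, the change from E16 to P16 was widespread and balanced. A miRNA was called when its false discovery rate (FDR, edgeR quasi-likelihood test with Benjamini-Hochberg adjustment) was under 0.05, its fold change exceeded 1.5 and no E16 library overlapped a P16 library. By this rule 291 miRNAs were called, 43.1% of those tested, with 145 higher at P16 (21.5%) and 146 lower (21.6%). These shares are the background for the counts of called members given below. The median log2 fold change over all tested miRNAs was 0.02. Of the called miRNAs, 206 changed over 4-fold, 96 upwards and 110 downwards, and 63 changed over 16-fold, 24 upwards and 39 downwards. In 18 called miRNAs every P16 library held 3 counts or fewer, and in 7 every E16 library did. A miRNA that passed the filter at E16 alone could hardly be called higher at P16, nor one that passed at P16 alone lower. The counts of members below hold such miRNAs, as do the background shares. Since the tissue was sequenced in bulk, fewer cells of a type and less RNA per cell cannot be told apart in any of these changes. Nor can age be told apart from the way of dissection, which differed between E16 and P16.

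**Figure D1:**
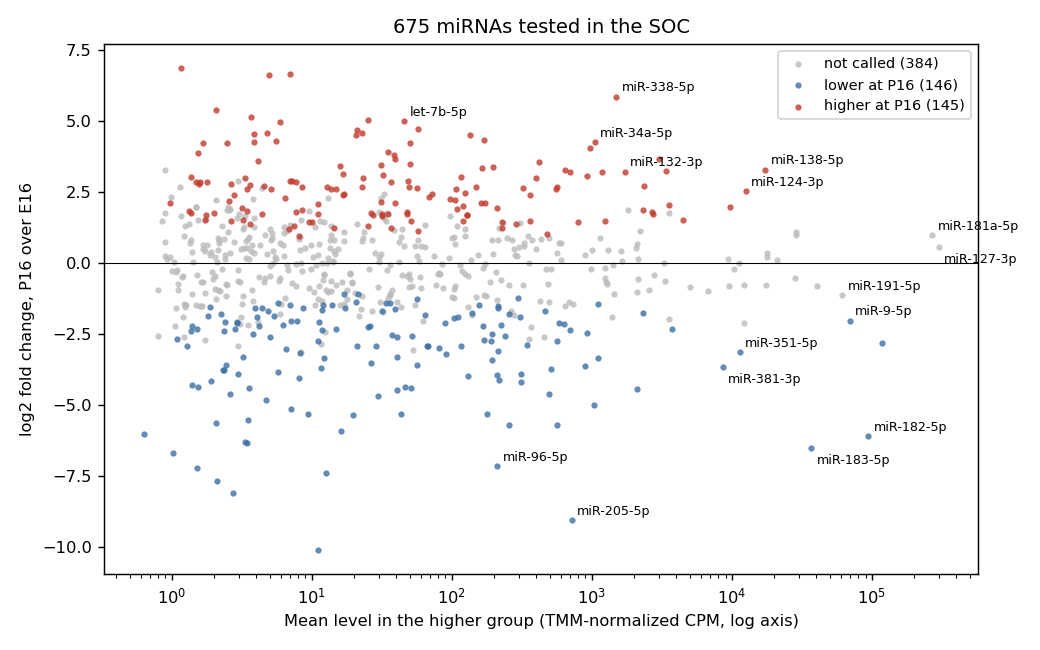
Fitted log2 fold change (P16 over E16, vertical axis) against the mean level in the higher group (TMM-normalized CPM, log axis) for the 675 tested miRNAs, with 145 called higher in red, 146 called lower in blue and the rest in grey. The abundant miR-182-5p and miR-183-5p lie at -6.09 and -6.50, far below the other miRNAs above 10000 CPM, while miR-127-3p and miR-181a-5p at the right edge were not called.

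The most abundant miRNAs partly exchanged places. At both ages miR-127-3p, cut from the antisense transcript of the imprinted gene Rtl1, was the highest on average (201136 and 298836 CPM) and miR-181a-5p the second (136504 and 269903 CPM), and neither passed the test (FDR 0.33 and 0.19). Of the 10 highest miRNAs, 6 were shared by both ages. Among the E16 leaders, miR-182-5p, miR-183-5p, miR-99b-5p and miR-9-5p fell, whereas miR-22-3p, behind those 2 at P16, was not called, with 21412, 10192, 10590 and 16709 CPM at E16 and 50382, 17722 and 18473 CPM at P16. The 10 leading miRNAs of a library took 69.3% to 79.7% of its counts at E16 and 77.6% to 80.3% at P16.

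**Figure D2:**
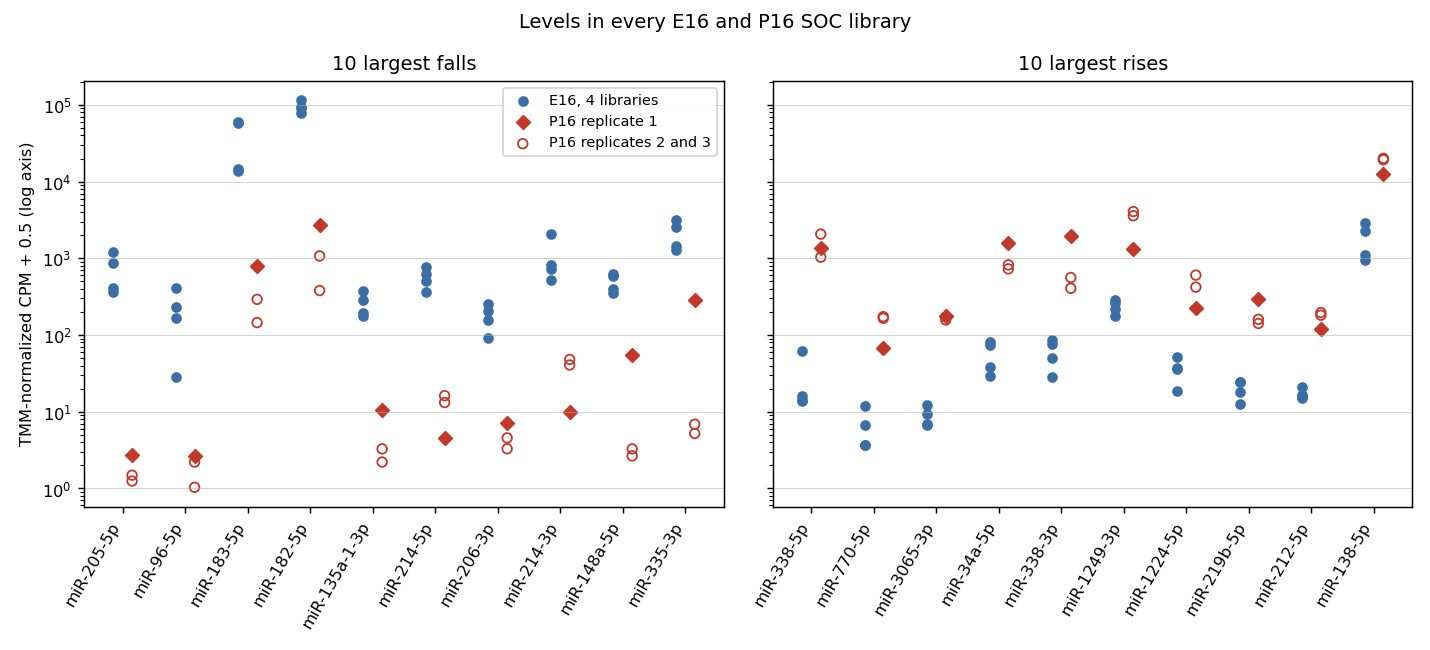
TMM-normalized CPM plus 0.5 (log axis) in each library for the 10 largest falls and the 10 largest rises among called miRNAs averaging 100 CPM or more in the higher group. Filled circles are the 4 E16 libraries, diamonds P16 replicate 1 and open circles P16 replicates 2 and 3; no P16 symbol overlaps the E16 range of its miRNA, and the spread between P16 symbols is widest for miR-335-3p, from 4.71 to 282 CPM.

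The deepest fall of an abundant group was that of the cluster of miR-183, miR-96 and miR-182. These hairpins, best known from sensory cells of the ear, eye and nose and from sensory ganglia, lie within 3.82 kb (chr6:30165918-30169737, minus strand, outside annotated host genes). All 5 tested members fell, with a median log2 fold change of -6.09. miR-182-5p, the fourth highest miRNA at E16, had 92667, 114800, 92755 and 77483 CPM at E16 and 2717, 380 and 1075 CPM at P16. This was a 67.9-fold fall (log2 -6.09 ± 0.87 SE, FDR 0.00029). miR-183-5p had 13622, 58197, 60719 and 14574 CPM at E16 and 784, 145 and 292 CPM at P16 (log2 -6.50 ± 1.26, FDR 0.0018). The 2 E16 libraries rich in miR-99b-5p were also those with the most miR-183-5p, and all 4 stood far above P16. miR-96-5p, whose seed mutations are known to cause hearing loss, had 164, 235, 415 and 28.2 CPM at E16 and 2.16, 0.535 and 1.71 CPM at P16 (log2 -7.15 ± 1.18, FDR 0.0007). The passenger arm miR-183-3p fell too (log2 -5.33 ± 1.11, FDR 0.0029). The other one, miR-182-3p, was near the limit of counting, with no counts in any P16 library and 0.0812 to 1.22 CPM at E16, and lost its call without E16 replicate 1 or 4 or P16 replicate 2 or 3 (FDR 0.058 to 0.068). The summed level of the cluster was 92178 to 173259 CPM at E16 and 526 to 3506 CPM at P16. It remained highest in P16 replicate 1, where the median log2 difference from E16 was -5.12 against -7.02 in replicates 2 and 3. When the kind of library entered the fit as a covariate, the median log2 fold change was -4.89, and without P16 replicate 1 it was -7.29, with miR-182-5p at -6.91 and miR-183-3p at -7.64.

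Most miRNAs that mark epithelium fell. Of 14 epithelial marker miRNAs in the table, 10 were tested and 8 fell, against 21.6% of all tested miRNAs. The median log2 fold change of the 10 was -4.08 (-3.68 with members at the counting floor set to their bound). Of the 8, miR-141-5p, miR-203-5p, miR-203b-3p and miR-205-3p passed the filter through E16 alone, so their direction was largely fixed by it. Not called were miR-200b-5p (FDR 0.24) and miR-200a-5p (FDR 0.25). The latter had 9.42 to 23.3 CPM at E16 and 0.376, 3.21 and 15.4 CPM at P16. miR-205-5p, a marker of squamous and stratified epithelium, had the largest fall among miRNAs above 100 CPM, from 1221, 863, 368 and 416 CPM at E16 to 2.26, 0.749 and 0.989 CPM at P16 (log2 -9.06 ± 1.13, FDR 0.00014). miR-203-3p, known from skin, fell from 420, 398, 223 and 199 CPM to 34.9, 5.99 and 10.5 CPM (log2 -4.18 ± 0.77, FDR 0.0013). miR-200c-3p, a guardian of the epithelial state, fell from 158, 289, 232 and 190 CPM to 4.89, 8.88 and 23.6 CPM (log2 -4.12 ± 0.86, FDR 0.0029). None of these ranges overlapped. At P0, when the brain was also taken out of the skull before freezing, the means of these 3 miRNAs were 9.39, 58 and 13 CPM. Without P16 replicate 1 the log2 fold change of miR-203-3p was -5.12, and without P16 replicate 3 that of miR-200c-3p was -4.93. The list summed to 1038 to 2088 CPM at E16 and 54.9 to 157 CPM at P16, while 3 defining members, miR-141-3p, miR-200a-3p and miR-200b-3p, were at or near 0 at both ages (at most 14 counts in a library).

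Some muscle and mesenchymal marker miRNAs fell as well. Of 4 tested muscle miRNAs 2 fell, against 21.6% of all tested miRNAs. miR-206-3p, specific to skeletal muscle, had 257, 158, 92.1 and 203 CPM at E16 and 6.59, 4.06 and 2.79 CPM at P16 (log2 -5.30 ± 0.56, FDR 8e-05), and miR-208b-3p, carried in an intron of the myosin gene Myh7, fell by 4.69 on the log2 scale (SE 0.89, FDR 0.0016) and by 5.82 without P16 replicate 1. The general muscle miRNA miR-1a-3p was not called, with 42.9, 31.2, 15.8 and 39.5 CPM at E16 and 17.6, 4.92 and 6.74 CPM at P16 (FDR 0.067), and it was called without P16 replicate 1 (FDR 0.024). Together the muscle markers summed to 133 to 355 CPM at E16 and 10.8 to 33.4 CPM at P16, with miR-133a-3p at 0 or 1 count throughout. Of 8 tested mesenchymal markers 5 fell. They included all 3 tested members of the cluster of miR-199a-2 and miR-214, which lies in an exon of the noncoding transcript Dnm3os (chr1:162217814-162223477, plus strand, antisense to Dnm3).

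Both arms of miR-214 were well covered. miR-214-3p had 829, 727, 527 and 2052 CPM at E16 and 9.32, 40.2 and 47.6 CPM at P16 (log2 -5.0 ± 1.01, FDR 0.0025), and miR-214-5p had 505, 767, 616 and 367 CPM at E16 and 4.05, 12.7 and 15.7 CPM at P16 (log2 -5.70 ± 0.76, FDR 0.00021). Without E16 replicate 4, the highest for miR-214-3p, that fold change was -4.36. miR-199a-5p was at 7.04 to 18.1 CPM at E16 and at 0, 1 and 1 counts at P16. miR-140-3p, a cartilage miRNA, fell from 278, 279, 174 and 224 CPM to 16.4, 48 and 54.4 CPM (log2 -2.59 ± 0.53, FDR 0.0025). In contrast miR-143-3p, a miRNA of smooth muscle and other mesenchymal cells and by far the highest of the list, was level, at 14322 to 25409 CPM at E16 and 18782 to 23769 CPM at P16 (log2 0.11 ± 0.36, FDR 0.82). The mesenchymal sum, at 16515 to 27814 CPM and 18920 to 23932 CPM, therefore did not separate the ages. The part of these cell types in the other falls was not tested. At P0 the means of miR-206-3p, miR-214-3p, miR-214-5p and miR-140-3p were 4.8, 57.1, 28.4 and 37.8 CPM. Whether tissue around the brain contributed at E16 was not tested.

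Most miRNAs tied to proliferation fell, with a smaller median change. The miR-17-92 cluster, transcribed as Mir17hg (chr14:115043671-115044506, plus strand) and known for driving progenitor division, has paralogous clusters on chromosomes X and 5. Over the 3 clusters 21 members were tested and 16 fell (median log2 fold change -2.03), against 21.6% of all tested miRNAs. miR-20a-5p, the highest member of the first cluster named here, had 738, 727, 896 and 409 CPM at E16 and a tight 138, 127 and 140 CPM at P16 (log2 -2.36 ± 0.42, FDR 0.001). miR-18a-5p fell from 55.1, 70.2, 112 and 29.3 CPM to 3.86, 8.56 and 13.8 CPM (log2 -2.93 ± 0.62, FDR 0.0031). Its neighbour miR-17-5p was counted at low level, 2.73 to 4.85 CPM at E16 and 1.22 to 1.35 CPM at P16 (log2 -1.60 ± 0.44, FDR 0.012), and was not called without P16 replicate 2 (FDR 0.065). In the chromosome X cluster (chrX:52741693-52742567, minus strand) all 5 tested members fell, among them miR-20b-5p, which had 1.98 to 5.61 CPM at E16 and at most 1 count in a P16 library. Several members counted here passed the filter through E16 alone, so their direction was largely fixed by it. They included miR-20b-5p, miR-18b-3p and miR-18b-5p of this cluster and miR-19a-5p, miR-19b-1-5p and miR-20a-3p of miR-17-92.

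The paralog miR-106b-25 behaved less uniformly. It overlaps the gene of the replication helicase subunit Mcm7 (chr5:138165321-138165818, minus strand), and 2 of its 6 tested members fell. miR-106b-5p had 202, 229, 208 and 215 CPM at E16 and 37.5, 79.9 and 94.6 CPM at P16 (log2 -1.59 ± 0.44, FDR 0.013), and this call was lost without P16 replicate 2 (FDR 0.067). Its abundant neighbours were not called. miR-93-5p had 3803, 3099, 3340 and 2849 CPM against 1615, 3577 and 4702 CPM, and miR-25-3p 9040, 10733, 9062 and 9061 CPM against 1758, 6243 and 8041 CPM. Only P16 replicate 1 was below the E16 range of miR-93-5p. In the fit that adjusted for the kind of library miR-25-3p was called at a log2 fold change of -2.51 (FDR 1.7e-06). That of miR-93-5p was -1.17 (FDR 0.00086), without a call because the ages overlapped. By seed, 4 of the 5 tested miRNAs with the miR-17 seed fell.

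The cluster of miR-322, miR-503, miR-542 and miR-450 on chromosome X, which is known for slowing the cell cycle in muscle precursors and other cells, fell almost as a block (chrX:53047997-53054349, minus strand). Of its 8 tested members 7 fell (median log2 fold change -3.59), against 21.6% of all tested miRNAs. miR-450a-5p had 161, 139, 149 and 74.8 CPM at E16 and 9.6, 7.17 and 8 CPM at P16 (log2 -3.99 ± 0.48, FDR 0.00013). miR-503-5p, at 43.8, 56.7, 51.5 and 32.5 CPM, fell to 1.04, 2.57 and 3.06 CPM (log2 -4.37 ± 0.52, FDR 0.00013). The nearby miR-351-5p, of the miR-125 seed family, was the highest of the region, at 18100, 7214, 8129 and 12089 CPM against 2925, 492 and 464 CPM (log2 -3.14 ± 0.80, FDR 0.0076). It was lowest in P16 replicates 2 and 3, and without replicate 1 its log2 fold change was -4.47. The other arm of the miR-322 hairpin, miR-322-3p, fell from 228, 217, 146 and 254 CPM to 34.1, 3.85 and 2.79 CPM, with a log2 fold change of -3.96 and of -5.89 without P16 replicate 1. The exception was miR-542-5p, at 20.7 to 43.2 CPM and at 13.5, 45.4 and 77.3 CPM. In the fit that adjusted for the kind of library its log2 fold change was -1.44 (FDR 0.0023), without a call because the ages overlapped.

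Several smaller families fell as well. All 3 tested members with the seed of miR-148 and miR-152, miRNAs known to target the DNA methyltransferase Dnmt1, fell: miR-148a-3p from 50.2 to 91.2 CPM at E16 to 17.2, 4.6 and 4.94 CPM (log2 -2.91 ± 0.65, FDR 0.0042), and miR-148b-3p from 47.6 to 195 CPM to 17.5, 10.7 and 17.2 CPM (log2 -2.94 ± 0.72, FDR 0.0064). Their relative miR-152-3p fell by 1.5 on the log2 scale (SE 0.54, FDR 0.039) and lost its call without E16 replicate 2 or 3 or any P16 replicate (FDR 0.062 to 0.13). The other arm of the first, miR-148a-5p, was the more abundant one, at 628, 594, 351 and 396 CPM against 55.1, 2.78 and 2.16 CPM (log2 -4.62 ± 1.31, FDR 0.014). Without P16 replicate 1, the log2 fold changes of miR-148a-3p, miR-148a-5p and miR-335-3p were -3.71, -7.54 and -8.46. miR-335-3p, carried in an intron of the imprinted gene Mest, had 1429, 3142, 2573 and 1285 CPM against 282, 4.71 and 6.38 CPM (log2 -4.43 ± 1.57, FDR 0.037). Replicates 2 and 3 at P16 were far below replicate 1, and the call was lost without E16 replicate 1, 2 or 3 or P16 replicate 2 or 3 (FDR 0.052 to 0.086). miR-135a-1-3p fell from 177, 378, 282 and 196 CPM to 10.2, 2.78 and 1.71 CPM (log2 -5.72 ± 0.97, FDR 0.00082), and its log2 fold change was -6.75 without P16 replicate 1. Only 3 of 21 pluripotency miRNAs passed the filter, and all 3 fell. Together they summed to 1.04, 0.321 and 0.629 CPM at P16, so all 3 passed the filter through E16 alone. Their direction was therefore largely fixed by the filter. The highest, miR-302d-3p, had 12.1, 24.2, 29.5 and 13.5 CPM at E16 and 0.659, 0.321 and 0.449 CPM at P16 (log2 -5.34 ± 0.62, FDR 0.00013).

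Among the miRNAs that rose were those of oligodendrocytes, the myelinating cells of the brain. Of 6 tested oligodendrocyte marker miRNAs 5 rose and 1 fell (median log2 fold change 3.30), against 21.5% and 21.6% of all tested miRNAs. The arm miR-219a-5p was not among the miRNAs counted. Their summed level went from 459 to 591 CPM at E16 to 9436, 3783 and 5038 CPM at P16. The miR-338 hairpin, in an intron of Aatk on chromosome 11, is known from oligodendrocyte maturation. Its arm miR-338-5p had 15.6, 13.4, 13.7 and 61.8 CPM at E16 and 1371, 1036 and 2070 CPM at P16. This 57.1-fold rise (log2 5.84 ± 0.66, FDR 0.00013) was the largest among miRNAs above 100 CPM, and without the high E16 replicate 4 it was 6.77 on the log2 scale. The other arm, miR-338-3p, rose from 76.2, 50, 85.8 and 27.7 CPM to 1959, 407 and 562 CPM (log2 4.03 ± 0.70, FDR 0.00094), highest in P16 replicate 1 and at 3.11 on the log2 scale without it. miR-219a-2-3p, from a hairpin that acts in the same cells, had 330, 346, 324 and 444 CPM at E16 and 5791, 2189 and 2229 CPM at P16 (log2 3.24 ± 0.48, FDR 0.00039).

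Both loci also encode a hairpin on the opposite strand. miR-219b-5p rose from 12.3 to 23.7 CPM to 292, 141 and 160 CPM (log2 3.36 ± 0.43, FDR 0.00014), and its counts were 3.79% to 7.17% of those of miR-219a-2-3p in every library. miR-3065-3p, opposite miR-338, rose from 6.37, 6.25, 8.94 and 11.9 CPM to 177, 157 and 172 CPM (log2 4.33 ± 0.41, FDR 8e-05) and was 8.29% to 65.3% of miR-338-5p. Whether counting used strand is not given in the sources used here, so reads of such opposite hairpins may not be told apart. The member that fell was miR-219a-1-3p, from the second miR-219a hairpin, at 25.5, 28.6, 26.6 and 33.8 CPM against 4.05, 3.21 and 4.04 CPM (log2 -2.92 ± 0.36, FDR 0.00014). On the opposite strand of that hairpin, miR-219c-3p rose from 0.564 to 4.22 CPM to 17.7, 7.38 and 13.6 CPM (log2 2.67 ± 0.80, FDR 0.018).

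The cluster of miR-132 and miR-212, which is transcribed in response to neuronal activity through CREB, rose as a unit. Its hairpins are 0.36 kb apart from end to end in an intron of 1700016P03Rik (chr11:75173388-75173747, plus strand), and all 4 mature miRNAs rose with log2 fold changes of 2.37 to 3.32. miR-132-3p had 133, 187, 191 and 239 CPM at E16 and 1834, 1717 and 1605 CPM at P16 (log2 3.20 ± 0.38, FDR 0.00013). miR-212-3p, with the same seed, rose from 14.5, 11.6, 9.9 and 21.2 CPM to 147, 113 and 91.3 CPM (log2 3.03 ± 0.38, FDR 0.00014). miR-212-5p rose from 14.5 to 20.7 CPM to 118, 196 and 181 CPM (log2 3.32 ± 0.38, FDR 0.00013), and miR-132-5p from 2.16 to 5.03 CPM to 14 to 18.6 CPM (log2 2.37 ± 0.40, FDR 0.00077). The P16 libraries were alike here, with medians of 3.04 in replicate 1 and 2.97 in replicates 2 and 3, and all 4 were called in every alternative fit that tested them.

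The let-7 family, which marks the switch from progenitor to differentiated state in many tissues, rose in part. Of 9 tested miRNAs with the let-7 seed 5 rose (median log2 fold change 1.42), and over all 19 tested arms of the family 6 rose and 1 fell. The background shares were 21.5% higher and 21.6% lower. let-7d-5p was by far the highest, at 872, 614, 533 and 1055 CPM at E16 and 2279, 2829 and 2941 CPM at P16 (log2 1.80 ± 0.39, FDR 0.0033). The largest steps were those of let-7b-5p and let-7c-5p, which both have a hairpin in an exon of Lncppara on chromosome 15 (chr15:85706603-85707403, plus strand). let-7b-5p went from 1.32, 1.95, 1.14 and 1.32 CPM to 17.4, 53.8 and 65.2 CPM (log2 4.98 ± 0.90, FDR 0.0012), and let-7c-5p from 1.54 to 2.63 CPM to 15.1, 38 and 51.8 CPM (log2 3.90 ± 0.71, FDR 0.0012). A further hairpin of let-7c-5p lies on chromosome 16. Its other arm, let-7c-1-3p, was the arm that fell, from 7.71 to 8.94 CPM to 1.98, 0.321 and 0.449 CPM (log2 -3.16 ± 0.85, FDR 0.011). Which hairpin gave the let-7c-5p reads was not tested. let-7g-5p rose by 1.73 (SE 0.39, FDR 0.0041) and miR-98-5p by 1.42 (SE 0.37, FDR 0.009), the latter not called without P16 replicate 3 (FDR 0.051). let-7i-5p was not called, at 48.9 to 88.4 CPM against 72.6, 105 and 138 CPM. let-7a-5p had 4.87, 0.406, 0.0952 and 0.658 CPM at E16 and 1.6, 1.93 and 2.88 CPM at P16 and was not called either, but it was called higher without E16 replicate 1 (log2 2.43, FDR 0.028).

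Low counts limited several families in the same way. Of the miR-29 family, which rises in maturing neurons, miR-29b-3p rose from 0.658 to 1.38 CPM at E16 to 34.8, 16.6 and 16.9 CPM at P16 (log2 4.56 ± 0.57, FDR 0.00014), whereas miR-29a-3p held 0 to 1 counts at E16 and 8 to 13 at P16 and miR-29c-3p 0 to 2 and 6 to 10, and neither was tested. miR-19b-3p (at most 30 counts), miR-106a-5p (at most 3), miR-195a-5p (at most 8) and miR-23a-3p (at most 5) were near 0 in all 7 libraries. How reads that match several similar miRNAs were assigned is not given in the sources used here, so levels within a family of near-identical members are uncertain.

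**Figure D3:**
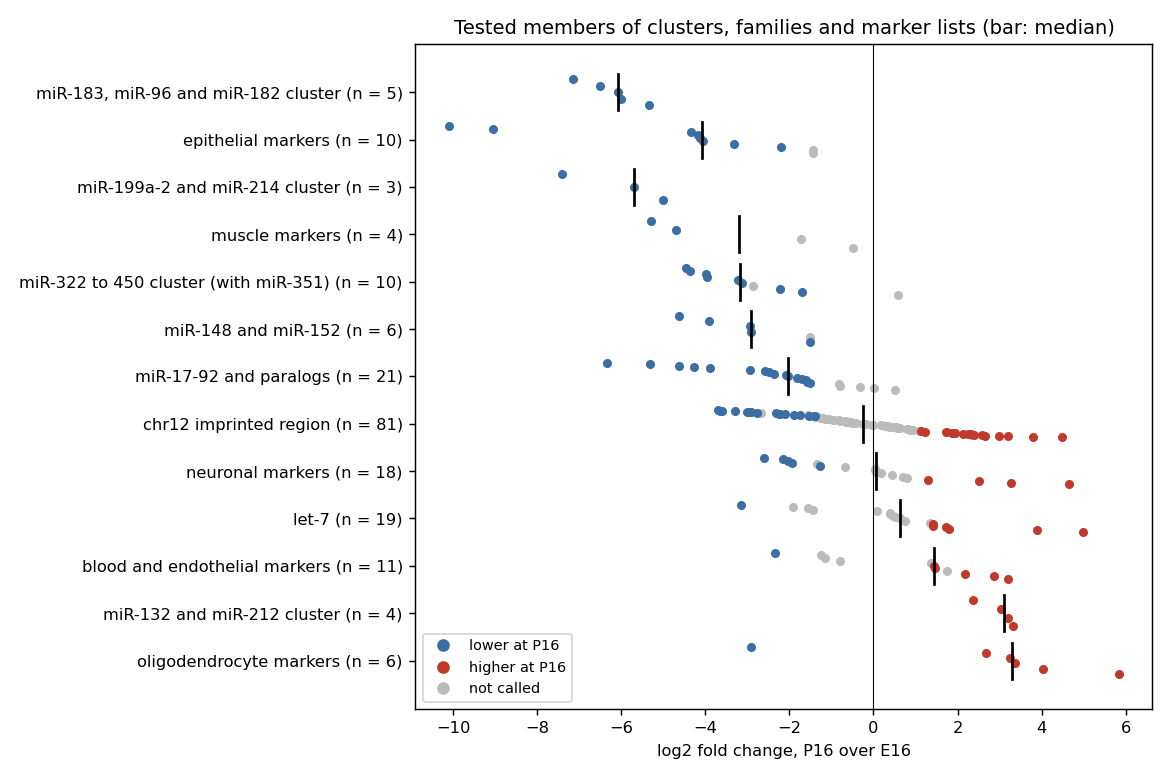
Fitted log2 fold change (P16 over E16, horizontal axis) of every tested member of 13 clusters, families and marker lists, in blue where called lower, red where called higher and grey where not called, with the median as a bar. The medians run from -6.09 for the cluster of miR-183, miR-96 and miR-182 to 3.30 for the oligodendrocyte markers; members with 3 counts or fewer in every library of an age are drawn at their fitted value.

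Some miRNAs with a common seed parted. Of 16 seeds with at least 2 called members, 3 had members called in opposite directions. miR-34a-5p, a target of p53 that is found in neurons, rose from 38.1, 73.7, 79.8 and 28.5 CPM to 1585, 728 and 822 CPM (log2 4.25 ± 0.66, FDR 0.0005). miR-449a-5p, made from an intron of Cdc20b and known from multiciliated cells, has the same seed and fell from 1394, 1547, 1064 and 381 CPM to 35.5, 135 and 157 CPM (log2 -3.33 ± 0.79, FDR 0.0054). Together the list of the miR-34 and miR-449 family summed to 434 to 1656 CPM at E16 and 891 to 1645 CPM at P16, so its total overlapped while its main member changed. Of the seed shared by miR-15 and miR-16, miR-497a-5p rose from 89.7, 47.2, 57.5 and 75.2 CPM to 368, 716 and 848 CPM (log2 3.26 ± 0.57, FDR 0.00095), and miR-322-5p fell from 701, 377, 499 and 285 CPM to 123, 131 and 176 CPM (log2 -1.70 ± 0.43, FDR 0.0072, not called without P16 replicate 2, FDR 0.056). The abundant miR-16-5p of this seed was not called, with 9834 CPM in P16 replicate 1 and 29602 and 46157 CPM in the others against 11229 to 17606 CPM at E16. The last such pair, named after its values were seen, was miR-370-5p (log2 2.58) and miR-1193-3p (log2 -3.30), both from the imprinted region of chromosome 12.

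Arms were paired where their names differed only in 5p and 3p, which left out arms numbered by hairpin, such as let-7c-1-3p. Both arms were tested for 197 such names, of which 69 had 1 arm called, 73 had none and 55 had both. Where both were called, the direction was the same in 53. Outside these pairs, let-7c-5p was called higher and let-7c-1-3p lower. The 2 exceptions among the pairs were named after their values were seen. miR-124-3p, the classic neuron-specific miRNA, rose from 1859, 2916, 2166 and 1846 CPM to 4261, 16883 and 16433 CPM (log2 2.51 ± 0.66, FDR 0.009), while miR-124-5p fell from 45.8, 66.4, 64.5 and 47.1 CPM to 25.2, 20 and 24.4 CPM (log2 -1.27 ± 0.37, FDR 0.015), a call lost without P16 replicate 2 or 3 (FDR 0.099 and 0.051). miR-181d-5p rose by 1.70 (SE 0.37, FDR 0.0035) and miR-181d-3p, at 1.14 to 3.65 CPM at E16, fell by 2.38 (SE 0.71, FDR 0.017), a call lost without P16 replicate 2 or 3 (FDR 0.076 and 0.066).

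The neuronal marker miRNAs did not move as a group. Of 18 tested, 4 rose and 5 fell, with a median log2 fold change of 0.05 against 0.02 over all tested miRNAs, of which 21.5% rose and 21.6% fell. miR-138-5p, which is enriched in brain and acts in dendritic spines, rose from 2245, 960, 1090 and 2893 CPM to 12632, 19327 and 20128 CPM (log2 3.27 ± 0.55, FDR 0.0008). miR-9-5p, of neural progenitors and young neurons, fell from 60925, 72999, 108067 and 36387 CPM to 34491, 7756 and 8424 CPM (log2 -2.04 ± 0.73, FDR 0.038), and miR-9-3p with it (log2 -2.15 ± 0.77, FDR 0.038). P16 replicate 1 lay just under the lowest E16 library of miR-9-5p, and the call was lost without E16 replicate 1, 2 or 3 or P16 replicate 2 or 3 (FDR 0.057 to 0.12), while without P16 replicate 1 the log2 fold change was -3.01. The call of miR-9-3p was lost without E16 replicate 2, 3 or 4 or P16 replicate 2 or 3 (FDR 0.05 to 0.12). In the fit that adjusted for the kind of library the log2 fold change of miR-9-5p was -0.71 (FDR 0.06). miR-128-3p, a miRNA of postnatal neurons, was not called, with 818 to 1735 CPM at E16 and 4150, 335 and 353 CPM at P16, so that replicate 1 lay above every E16 library and the other two below.

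Further large rises came from single hairpins. miR-1249-3p rose from 179, 216, 265 and 290 CPM to 1308, 4082 and 3597 CPM (log2 3.66 ± 0.51, FDR 0.00028), and miR-1224-5p, from an intron of Vwa5b2, from 18, 36.7, 35.6 and 51.1 CPM to 228, 604 and 421 CPM (log2 3.56 ± 0.52, FDR 0.00036). On the X chromosome, miR-3552 from the region of the serotonin receptor gene Htr2c rose from 1.62 to 4.23 CPM to 38, 59.7 and 53.8 CPM (log2 4.22 ± 0.63, FDR 0.00039), and miR-470-5p, of a cluster of 19 hairpins known mainly from testis, from 2.27 to 2.76 CPM to 23, 11.8 and 10.2 CPM (log2 2.60 ± 0.53, FDR 0.0027). Of 11 tested blood and endothelial markers 5 rose and 1 fell (median log2 fold change 1.45, and -0.29 in the fit that adjusted for the kind of library). The background shares were 21.5% higher and 21.6% lower. The lymphocyte miRNA miR-150-5p had 64.4, 67.1, 75.6 and 95.3 CPM at E16 and 799, 658 and 649 CPM at P16 (log2 3.21 ± 0.34, FDR 8e-05). The other members that rose were miR-150-3p, from the same hairpin, miR-126b-5p, miR-451a and miR-486a-3p. The member that fell was miR-223-3p (log2 -2.35), and miR-142a-3p and miR-142a-5p were not called (log2 -0.8 and -1.24). The endothelial miR-126a-3p was not called, with 901 to 1334 CPM at E16 and 1029, 3769 and 5779 CPM at P16, and was called higher without P16 replicate 1 (log2 2.29, FDR 0.019). The list summed to 1089 to 1580 CPM at E16 and to 1995, 4622 and 6649 CPM at P16.

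Of the remaining families, the 6 tested members of miR-99 and miR-100 included 3 that fell (median log2 fold change -1.57), the 7 of miR-130 and miR-301, known for acting in growing tissue and vessels, 5 that fell (-2.74) and the 4 of miR-7 3 that fell (-2.42). The miRNAs of the Hox clusters, which mark the position along the body axis, fell in 4 of 5 tested (-1.89). The 10 tested members of the miR-181 family held 2 that rose and 1 that fell, and the 10 of the miR-30 family 1 that fell. For all these families the background shares were 21.5% higher and 21.6% lower, or 43.1% called.

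The imprinted region of chromosome 12, a large miRNA cluster made from the maternal allele, held miRNAs called in either direction at about the background share. Between the hairpins of miR-770 in Meg3 and miR-3072 (chr12:109563692-109747960, plus strand, 54 hairpins), 81 tested miRNAs had an entry in RefSeq. Of these, 15 rose (18.5%, against 21.5% of all tested miRNAs) and 17 fell (21.0%, against 21.6%), with a median log2 fold change of -0.25. Tested miRNAs without an entry, such as miR-539-3p (called lower, log2 -7.22) and miR-485-5p (not called, log2 1.33), are outside these counts. In the stretch from miR-770 to miR-136 at its start, 4 of 20 rose and 3 fell. In the distal block from miR-379 to miR-3072, 9 of 55 rose and 14 fell. The same background shares apply to both stretches. miR-770-5p, at the start, made the largest rise, from 6.19, 3.17, 3.14 and 11.5 CPM to 67, 173 and 165 CPM (log2 4.49 ± 0.67, FDR 0.00039). miR-433-3p, antisense to Rtl1, rose from 573, 700, 630 and 1394 CPM to 3649, 2524 and 2050 CPM (log2 1.73 ± 0.45, FDR 0.0089). In the distal block miR-381-3p, a brain miRNA, fell from 12135, 7748, 6749 and 7685 CPM to 1595, 246 and 214 CPM (log2 -3.65 ± 0.91, FDR 0.007), and by 5.13 on the log2 scale without P16 replicate 1. The most abundant miRNA of the distal block, miR-410-3p, was not called, at 25210 to 34060 CPM against 28909, 17005 and 12264 CPM.

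**Figure D4:**
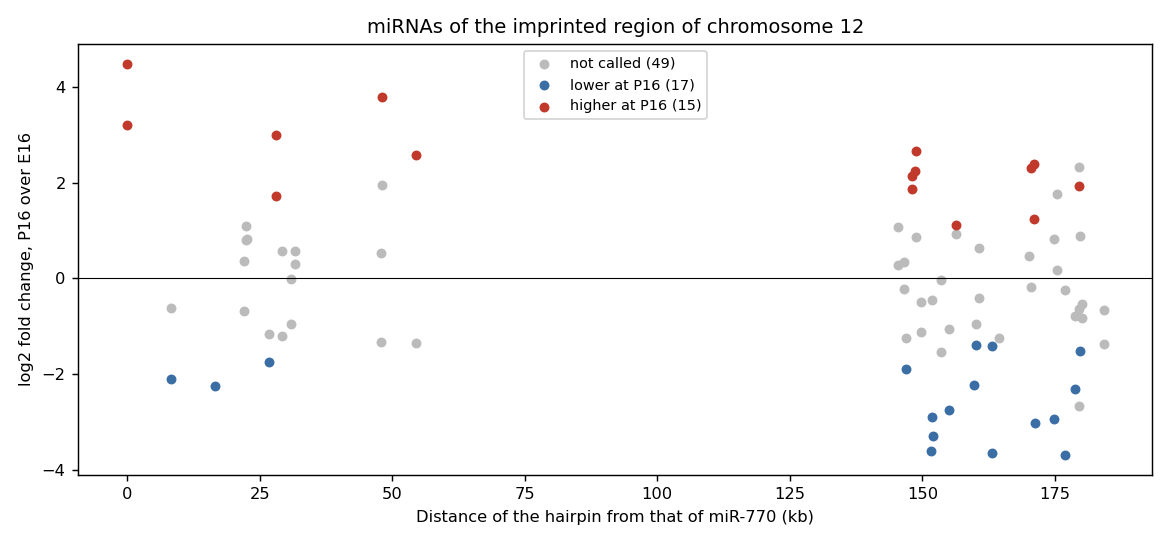
Fitted log2 fold change (P16 over E16, vertical axis) of the 81 tested miRNAs of the imprinted region of chromosome 12 with an entry in RefSeq, by distance of the hairpin from that of miR-770 (kb). The 15 called higher (red) and 17 called lower (blue) are mixed along the region. Among the miRNAs drawn, miR-770-5p was highest at 4.49 and miR-377-3p lowest at -3.70.

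The low miR-191-5p libraries were then checked against P16 replicate 1. Over the 675 miRNAs, P16 replicates 2 and 3 differed from each other by a median of 0.26 on the log2 scale, and their mean differed from replicate 1 by a median of 0.96. The difference exceeded 1.5-fold for 453 miRNAs, 210 higher and 243 lower in replicates 2 and 3, and 4-fold for 113. miR-191-5p itself had 50958, 77726, 76364 and 40807 CPM at E16 and 78570, 2861 and 2483 CPM at P16 and was not called (FDR 0.44), whereas without P16 replicate 1 it was called lower (log2 -4.43, FDR 0.0057). At P0, the single library with low miR-191-5p differed in a like way from the P0 libraries with neither low miR-191-5p nor high miR-99b-5p, with a Pearson correlation of 0.91 between the log2 differences at P0 and at P16 over 429 miRNAs above 10 CPM. These points share the contrast of library kinds but no library.

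Since a call required that no P16 library overlap an E16 library, the direction of each of the 291 called miRNAs was the same in every P16 library by construction, and only the sizes could be compared. P16 replicate 1 differed from the E16 mean by over 1.5-fold in 288 of them and the mean of P16 replicates 2 and 3 in 290. Against E16 replicates 1 and 4 only, the E16 libraries without high miR-99b-5p, P16 replicate 1 differed by over 1.5-fold in 284. For 122 of the 291 both estimates lay within 1.5-fold, for 120 replicates 2 and 3 were further from E16, and for 49 replicate 1 was. The fit with P16 replicate 1 as the only P16 library, whose spread is assumed to be that of the other groups, called 116 miRNAs (17.2%), 108 of them among the 291. The fit that adjusted for the kind of library called 288 (42.7%), of which 257 were among the 291.

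Outside the called miRNAs, the P16 libraries could point opposite ways. In 46 of the 675 miRNAs, replicate 1 and the mean of replicates 2 and 3 lay over 1.5-fold from E16 on opposite sides, and miR-128-3p was one of them (log2 1.79 and -1.80). miR-365-3p had 53.7 to 67.5 CPM at E16 and 43.7 CPM in P16 replicate 1, but 1.07 and 0.359 CPM in replicates 2 and 3. It was not called (FDR 0.23), and was called without replicate 1 (log2 -6.36, FDR 0.0025). miR-99b-5p, whose share separates the E16 libraries, had 28213, 203422, 205086 and 34421 CPM at E16 and 17254, 19884 and 12953 CPM at P16 (log2 -2.82 ± 1.02, FDR 0.039). Its call was lost without E16 replicate 2 or 3, or without any P16 replicate (FDR 0.063 to 0.11).

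**Figure D5:**
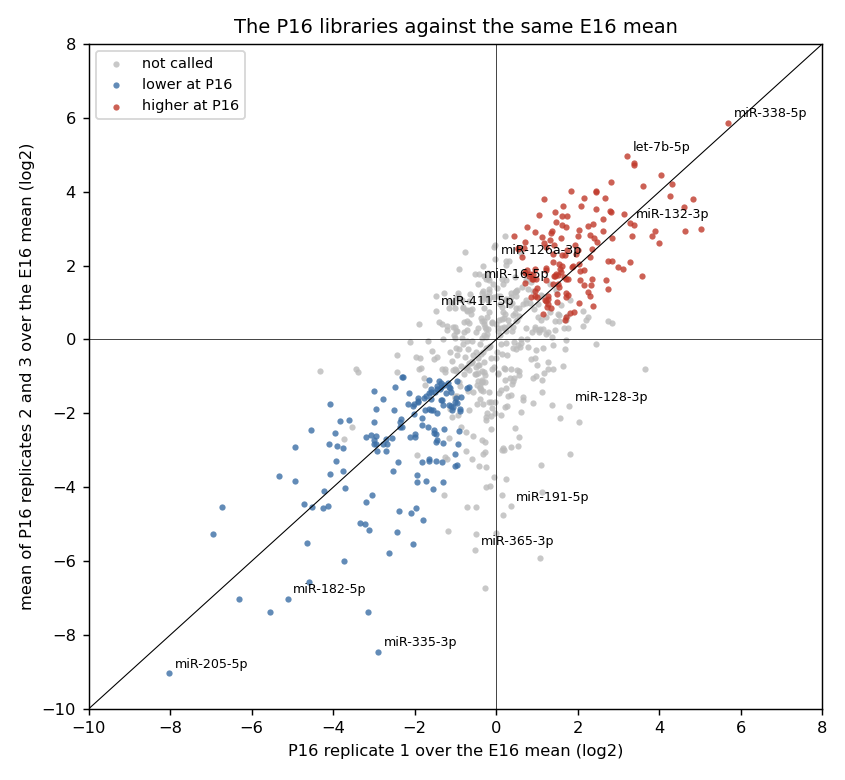
Log2 ratio to the E16 mean in P16 replicate 1 (horizontal axis) and in the mean of P16 replicates 2 and 3 (vertical axis), each from CPM plus 0.5, for the 675 tested miRNAs with the line of equality. Called miRNAs lie in the lower left and upper right quadrants, as the rule on overlap requires, whereas miR-191-5p, miR-365-3p and miR-128-3p lie far below the line.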

How the data were processed

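Small RNA of the wild-type mouse SOC was sequenced at E16 (n = 4), P0 (n = 4) and P16 (n = 3). The authors deposited raw read counts per mature miRNA, after alignment with Bowtie to a reference of mouse miRNAs; the submitters' processing notes name Bowtie2 2.2.5 and DESeq2. How reads matching several miRNAs were counted, and whether strand was used, is not given in the sources used here. The cochlear libraries, made with another kit, were not used.

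The 11 SOC libraries were fitted together with edgeR 4.0.16 (R 4.3.3, TMM factors, quasi-likelihood F test), so that P0 contributed only to the spread, and P16 was contrasted with E16. Testing was limited to miRNAs that exceeded 1 CPM in 2 or more libraries of an age, with Benjamini-Hochberg adjustment over all of them. To be called, a miRNA needed a fold change above 1.5, an FDR below 0.05 and E16 and P16 libraries that did not overlap. Scripts were tested on simulated data. A group at 3 counts or fewer in every library was treated as at the floor, for counting error only. Ratios of single libraries used a pseudocount of 0.5 CPM. Genomic clusters were hairpins on one strand at most 10 kb apart. Counts by genomic cluster and by seed held only miRNAs with an entry in RefSeq. Library kinds were set by miR-99b-5p over 10% or miR-191-5p under 1% of counts. The labels do not tie samples to animals beyond replicate numbers, so p-values measure the spread between these samples. No 2 libraries of an age agreed within sampling noise.

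Named miRNAs were the 10 largest rises and 10 largest falls among called miRNAs averaging 100 CPM or more in the higher group, the 10 highest at each age, the highest and the most changed members of each group described with other list members for contrast, miR-191-5p and miR-99b-5p, and those treated in the study's text. The members and lists were chosen with earlier results of these data known. Alternatives changed the normalization, filter, thresholds, libraries and tool (DESeq2 1.42.0, limma 3.58.1).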

Additional observations from a re-analysis of the deposited data

Results flagged for a closer look

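In 7 of the 85 E16 groups of 4 libraries examined, 1 library stood apart by Dixon's test, which chance gives in about 1 of 20 groups. miR-208b-3p was highest in E16 replicate 1 at 48.3 CPM against 22 to 24.9 CPM in the others, let-7g-5p was highest there at 14.6 CPM against 8.94 to 9.88 CPM, and let-7a-5p too at 4.87 CPM against 0.0952 to 0.658 CPM. miR-25-3p was highest in E16 replicate 2 at 10733 CPM against 9040 to 9062 CPM, and let-7c-5p was lowest there at 1.54 CPM against 2.57 to 2.63 CPM. miR-338-5p was highest in E16 replicate 4 at 61.8 CPM against 13.4 to 15.6 CPM, and miR-433-3p at 1394 CPM against 573 to 700 CPM.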

How the results depend on the processing

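The 291 calls became 293 with RLE size factors, 282 with library totals alone, 327 with DESeq2, 308 with limma, 272 of 1484 tested without the low-count filter, 309 with only the 7 libraries compared, 301 without the criterion on overlap, 290 at a fold change over 2 and 288 with the kind of library as a covariate. They moved by more than 1.5 times when the filter was raised to 10 CPM, which left 414 miRNAs to test (188 called, 106 higher and 82 lower), and with P16 replicate 1 as the only P16 library (116 called, 66 higher and 50 lower). Leaving out 1 library gave 209 to 367 calls, 119 to 166 higher and 84 to 201 lower, fewest without P16 replicate 2 and most without P16 replicate 1. The median log2 fold change of all tested miRNAs moved from 0.02 to 0.12 with library totals and to 0.17 with limma. No call shared with any of these alternatives changed direction. Same-numbered E16 and P16 samples did not deviate together (correlations of 0.003, 0.024 and -0.082), so the numbers did not pair them, and a fit with the replicate number as a block called 300, of which 279 were shared, with miR-181a-5p among the new ones. Of 85 named miRNAs 69 were called, and 65 to 69 of them kept the call under each alternative fit to all libraries on the full table, 61 of 64 still tested at 10 CPM, 43 with P16 replicate 1 alone and 58 to 67 without 1 library. Directions turned only among those not called. With the kind of library as a covariate, and then with P16 replicate 1 alone, the log2 fold change was -1.17 and -1.02 for miR-93-5p, -1.44 and -1.16 for miR-542-5p, -0.75 and -0.43 for miR-16-5p, -0.29 and -0.02 for miR-126a-3p, 0.48 and 0.05 for miR-410-3p and 0.49 and 0.35 for miR-191-5p. For let-7a-5p it was -0.15 with the covariate, and for miR-128-3p it was -0.48 with limma and -0.61 with the block. Without 1 library it ran from -0.02 to 0.32 for miR-143-3p, from -0.28 to 0.44 for miR-93-5p and from -1.69 to 0.94 for miR-128-3p. With the covariate, the FDR was 0.00086 for miR-93-5p, 0.0023 for miR-542-5p and 0.018 for miR-16-5p, which were not called because the ages overlapped. It was 0.33 for miR-126a-3p, 0.14 for miR-410-3p and 0.12 for miR-191-5p. The cause of these shifts was not tested. A single count was worth 0.0601 to 0.107 CPM, which limits values near the floor.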
